A study of Mus musculus with 8 samples.

Results

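E2 ubiquitin-conjugating enzymes were described by the RNA of their genes in red pulp macrophages, spleen cells that engulf old erythrocytes and return their iron to the blood. Genes were taken where the Ensembl row carried a mouse symbol made of Ube2, letters and an optional number, and where at least 10 reads were counted in at least 4 of the 8 libraries. Such a symbol was found for 38 of the 55414 deposited rows, and 31 of them met the minimum. The other 7 were Ube2u, Ube2uos, Ube2ql1, Ube2d4, Ube2dnl1 and Ube2dnl2, which had 0 reads in every library, and Ube2nl, which had at most 3 reads in a library. Of the 31 genes 29 had at least 10 reads in all 8 libraries. The remaining 2, Ube2cbp and Ube2e2, met the minimum in libraries of both groups. The name pattern is wider than the enzyme class on 1 side: Ube2cbp, also called Ube3d, is an E3 ligase named for binding an E2. It is narrower on the other, because the E2 genes Cdc34 and Birc6 carry other names and Ube2d2a carries a letter after its number.

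The 4 CLP libraries came from macrophages taken 2 h after cecal ligation and puncture (CLP), an operation that lets bacteria escape from the gut and so causes sepsis. The 4 Sham libraries came from macrophages taken 2 h after sham surgery. All mice of both groups were wild-type C57BL/6J, the cells were sorted from spleen by flow cytometry, and the study's title asks about the hemolysis of sepsis; age and sex were not given in the labels. Whether the libraries stem from separate mice is not in the labels, so the p-values measure only the spread between these libraries, which may be technical. In such bulk samples fewer cells of a type and less RNA per cell cannot be told apart.

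Ubiquitin is a small protein that cells attach to other proteins. An E1 enzyme activates it, an E2 takes it over on an active-site cysteine, and an E3 ligase brings the loaded E2 to the substrate. The choice of E2 helps to set which kind of chain is built: K48-linked chains mark proteins for the proteasome, K63-linked and linear chains carry signals such as those from Toll-like receptors to NF-kB. Some E2s carry the ubiquitin-like proteins NEDD8, SUMO or ISG15 in place of ubiquitin. In macrophages this system relays the response to bacterial products, and in maturing red cells it removes proteins and organelles.

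The mark of the class is a His-Pro-Asn motif shortly before the active-site cysteine. The coding sequences of the principal transcripts in GENCODE mouse release M21 hold this motif, followed by a cysteine after 7 or 8 codons, in 18 of the 31 genes. It was not found in the other 13, among them Ube2v1 and Ube2v2, whose proteins are E2 variants without an active-site cysteine, and Ube2o, a far larger protein of 1288 codons. The stretch from the histidine codon to the cysteine codon is shown for the genes on which the results turn, as the part of each enzyme that takes up ubiquitin or its relative, with the cysteine codon in capitals.
Ube2f (chromosome 1, plus strand, carries NEDD8): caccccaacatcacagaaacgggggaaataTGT
Ube2m (chromosome 7, minus strand, carries NEDD8): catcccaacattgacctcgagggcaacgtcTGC
Ube2l6 (chromosome 2, plus strand, carries ISG15): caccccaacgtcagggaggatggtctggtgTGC
Ube2l3 (chromosome 16, minus strand, carries ubiquitin): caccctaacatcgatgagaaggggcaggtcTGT
Ube2h (chromosome 6, minus strand, carries ubiquitin): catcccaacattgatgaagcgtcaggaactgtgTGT
Ube2d3 (chromosome 3, plus strand, carries ubiquitin): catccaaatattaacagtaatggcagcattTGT
Ube2d1 (chromosome 10, minus strand, carries ubiquitin): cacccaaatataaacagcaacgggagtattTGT
Ube2n (chromosome 10, plus strand, carries ubiquitin): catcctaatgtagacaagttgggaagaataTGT
Ube2h has 8 codons between the motif and the cysteine, and the other genes shown have 7.

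Total counts were 17333748 to 21409078 in CLP libraries and 15392992 to 25665633 in Sham libraries. Levels are given as CPM, the usual depth-scaled count of a gene, with library totals adjusted by TMM. TMM assumes that most genes do not differ, and scaling on plain library totals shifted the log2 fold changes by a median of -0.32, so every direction was read under both scalings. All 12 markers of red pulp macrophages were detected, with a summed level of 37517 to 43042 CPM in CLP libraries and 32797 to 40244 CPM in Sham libraries. Summed markers of other leukocytes were far lower: neutrophil genes had 102 to 175 CPM in CLP and 76.9 to 92.9 CPM in Sham, and monocyte, dendritic cell, B cell and T and NK cell genes had at most 61.7 CPM in any library. Platelet genes had 19.4 to 24.2 CPM in CLP and 6.98 to 8.98 CPM in Sham. The part of these cells in the results below was not tested.

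With TMM scaling 15 E2 genes were higher after CLP, 1 was lower and 15 did not pass the test (adjusted p under 0.05 in edgeR's quasi-likelihood test over 14004 genes). The 15 higher genes were 48.4% of the members, and 19.8% of all genes tested were higher. The 1 lower gene, Ube2d1, was 3.23% of the members, and 23.5% of all genes tested were lower. The median log2 fold change, CLP over Sham, was 0.22 over the members and -0.05 over all genes. None reached a log2 fold change of 1, and the highest value, that of Ube2o, was 0.998. The E2 genes are more abundant than most genes: among the 9525 genes that averaged 5 CPM or more 24.5% were higher and 25.1% lower, and of the 27 members at that level 15 were higher and 1 lower.

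With library totals fewer members were higher and more were lower. The median log2 fold change was -0.095 over the members and -0.37 over all genes, so the median of the members was again the higher one. Then 5 members were higher and 6 lower, 16.1% and 19.4% of them, while 9.18% of all genes were higher and 46.0% lower. The 5 genes called higher under both scalings were Ube2o, Ube2l6, Ube2f, Ube2h and Ube2j2, and Ube2d1 was called lower under both. A further 10 were called higher with TMM only, and 5 (Ube2a, Ube2q1, Ube2g1, Ube2w and Ube2q2) were called lower with library totals only. No gene was called in opposite directions. In CPM with TMM the groups did not overlap for 15 members with CLP higher and 1 with CLP lower, against 18.7% and 22.8% of all genes. With library totals this held for 3 members with CLP higher (Ube2f, Ube2h and Ube2j2) and 5 with CLP lower (Ube2q1, Ube2g1, Ube2w, Ube2q2 and Ube2d1), against 8.62% and 42.7% of all genes. Where overlap of the groups is described below it refers to CPM with TMM.

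**Figure D1:**
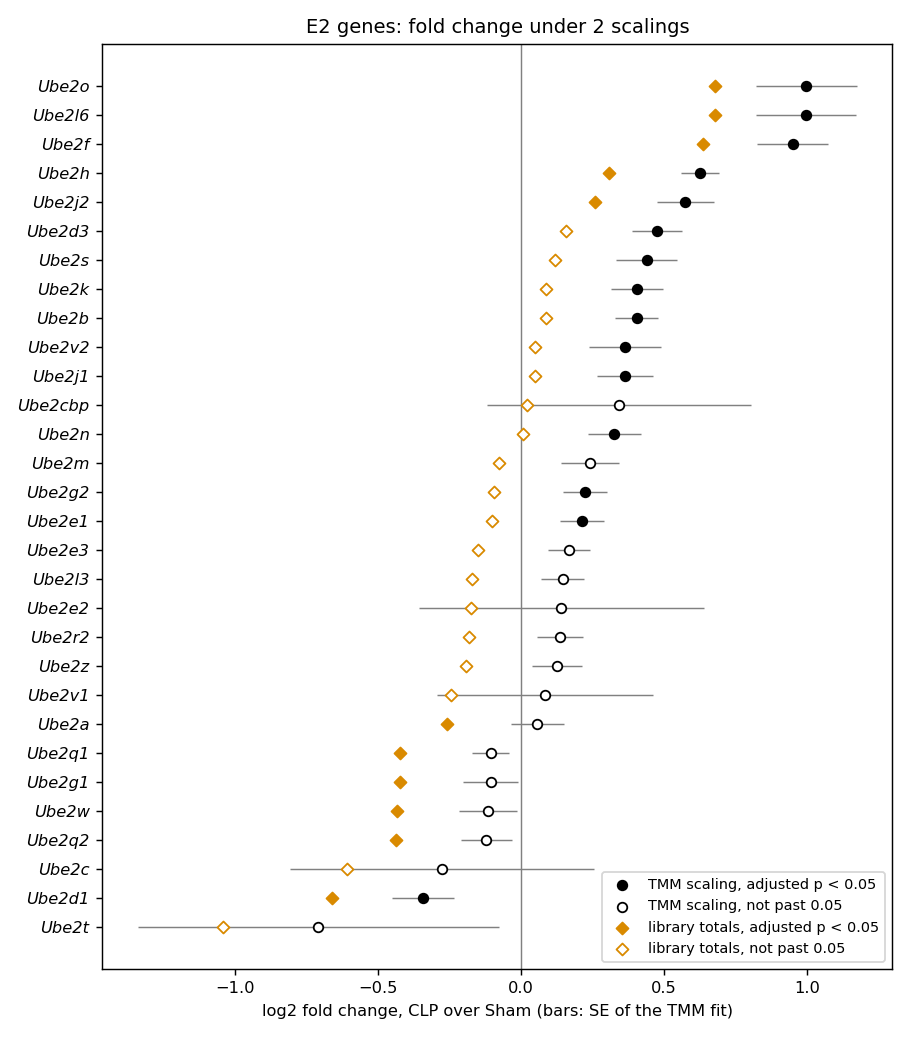
Log2 fold change, CLP over Sham, of 30 of the 31 E2 genes (vertical axis, ordered by TMM value) under TMM scaling (circles, with SE) and under library totals (diamonds); filled symbols passed an adjusted p of 0.05. Ube2o, Ube2l6, Ube2f, Ube2h and Ube2j2 are filled to the right of 0 under both scalings, and Ube2d1 is filled to the left under both.

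The ubiquitin-like E2s held a contrast within the pair of enzymes for NEDD8, a protein whose best known targets are the cullin scaffolds of E3 ligases. Ube2f, which works with the RING protein Rnf7 on Cul5, had 268, 258, 270 and 266 CPM in the CLP libraries, against 144, 149, 157 and 98.8 CPM in the Sham libraries. The CLP libraries lay close together, all above every Sham library, and the lowest Sham value was that of replicate 4. The means were 265 ± 5.28 CPM after CLP and 137 ± 26.3 CPM after Sham (SD, n = 4 each), giving a log2 fold change of 0.95 (its SE 0.12, adjusted p = 0.000145, edgeR) with TMM and 0.64 (adjusted p = 0.000812) with library totals. Without Sham replicate 4 the TMM value was 0.84.

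Ube2m, the E2 that works with Rbx1 on most other cullins, had 64.9, 58.2, 50.04 and 56.5 CPM in CLP libraries, against 54.7, 45.7, 43.2 and 50.7 CPM in Sham libraries. These groups overlapped, and the log2 fold change of 0.24 (SE 0.10) had an adjusted p of 0.0755 in edgeR. That call depended on the setting: Ube2m passed with DESeq2 size factors (adjusted p = 0.0442), with DESeq2's Wald test (0.0406), without CLP replicate 3 (0.0232) and without Sham replicate 1 (0.0291), and its log2 fold change was -0.077 with library totals. The ratio of Ube2f to Ube2m counts within a library does not depend on scaling, and it was 4.12, 4.42, 5.39 and 4.71 in CLP libraries and 2.64, 3.27, 3.64 and 1.95 in Sham libraries. Every CLP library lay above every Sham library.

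Of 20 tested cullin and neddylation genes 3 were higher and 6 lower with TMM, and 0 and 14 with library totals. Of all genes tested 19.8% were higher and 23.5% lower with TMM, and 9.18% and 46.0% with library totals. The same shares over all genes apply to the list counts below. Nedd8 itself had a log2 fold change of 0.10, Rbx1 0.00, Rnf7 -0.10 and Cul5 -0.17, and none of these passed with TMM. Senp8, the protease that matures NEDD8 and removes it from proteins other than cullins, fell to 2.75, 1.58, 2.74 and 2.18 CPM in CLP libraries, against 10.0, 10.7, 11.2 and 14.0 CPM in Sham libraries. Its log2 fold change was -2.31 (adjusted p = 1e-05, edgeR), and the highest CLP library was far below the lowest Sham library. Cul3, the scaffold of the Keap1 ligase, was the most abundant of the list at 145 ± 6.48 CPM after CLP and 113 ± 2.58 CPM after Sham, a log2 fold change of 0.36 (adjusted p = 0.000903, edgeR) that was 0.04 with library totals.

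Ube2l6, the E2 for the interferon-induced modifier ISG15, had 91.0, 95.6, 141 and 84.4 CPM in CLP libraries, against 50.3, 46.0, 45.5 and 64.5 CPM in Sham libraries. CLP replicate 3 stood above the other CLP libraries and Sham replicate 4 above the other Sham libraries. The groups did not overlap with TMM and overlapped with library totals. The means were 103 ± 25.6 CPM after CLP and 51.6 ± 8.86 CPM after Sham (SD, n = 4 each), with a log2 fold change of 1.00 (its SE 0.17, adjusted p = 0.00137, edgeR) with TMM and 0.68 (adjusted p = 0.0119) with library totals. Of the 6 other genes tested in the ISG15 system only Arih1 was higher, with a log2 fold change of 0.30 (adjusted p = 0.00709, edgeR), and with library totals 2 were lower. Isg15 had 26.6, 17.9, 31.0 and 34.2 CPM in CLP libraries and 15.3, 16.4, 25.5 and 24.5 CPM in Sham libraries, and these groups overlapped (log2 fold change 0.43, adjusted p = 0.163). The E1 of this pathway, Uba7, had -0.15 and the ISG15 protease Usp18 had 0.34, and neither passed with TMM.

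Of 18 sumoylation genes 3 were higher and 4 lower with TMM, and 1 and 13 with library totals. The most abundant of the list, the nuclear pore ligase Ranbp2, had 647 ± 74.1 CPM after CLP and 490 ± 21.1 CPM after Sham. Ube2z, an E2 charged by Uba6 for ubiquitin and FAT10, overlapped between the groups and did not pass (0.13, adjusted p = 0.27, edgeR).

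Ube2o and Ube2h are E2s best known from the last steps of red cell formation. Ube2o, which works as E2 and E3 in a single protein and clears ribosomal proteins from reticulocytes, had 139, 132, 198 and 114 CPM in CLP libraries, against 66.8, 64.1, 70.3 and 90.9 CPM in Sham libraries. As for Ube2l6, CLP replicate 3 and Sham replicate 4 were the highest of their groups. Here too the groups did not overlap with TMM and overlapped with library totals. The means were 146 ± 36.4 CPM after CLP and 73.0 ± 12.2 CPM after Sham (SD, n = 4 each), with a log2 fold change of 1.00 (its SE 0.18, adjusted p = 0.00146, edgeR) with TMM and 0.68 (adjusted p = 0.0133) with library totals. Ube2h, the partner of the erythroid CTLH ligase with Maea, had 133, 131, 119 and 125 CPM in CLP libraries, against 83.0, 80.5, 81.4 and 84.5 CPM in Sham libraries. It was far tighter within each group, CLP replicate 3 was its lowest CLP library, and the log2 fold change was 0.63 (SE 0.06, adjusted p = 2.72e-05, edgeR) with TMM and 0.31 (adjusted p = 0.00265) with library totals.

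**Figure D2:**
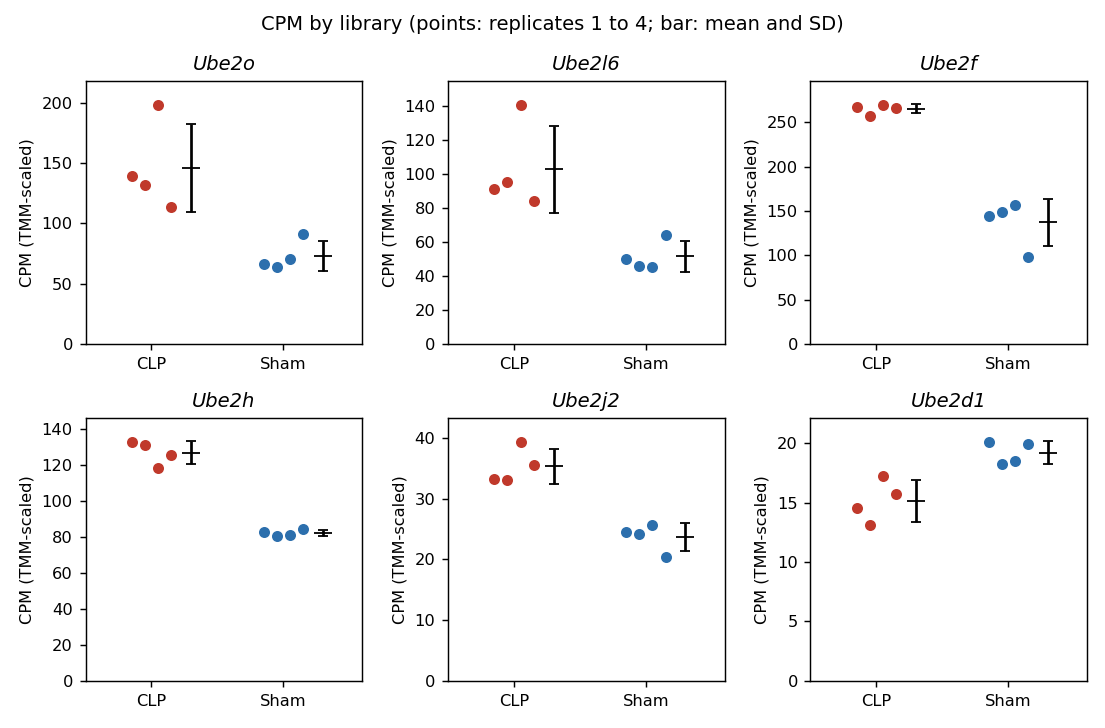
CPM after TMM scaling (vertical axis, from 0) of the 6 E2 genes called the same way under both scalings, with 4 CLP libraries left of 4 Sham libraries in replicate order and the mean and SD beside each group. With this scaling CLP lies above Sham without overlap for Ube2o, Ube2l6, Ube2f, Ube2h and Ube2j2 and below it for Ube2d1.

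Of 10 erythroid markers 9 were found and none was at 0 in every library; 7 could be tested, of which 3 were higher and 1 lower with TMM, and 2 and 1 with library totals. Alas2, the first enzyme of heme synthesis in red cell precursors, had 255, 288, 520 and 255 CPM in CLP libraries, against 86.2, 97.3, 90.2 and 171 CPM in Sham libraries. Hbb-bs, an adult beta globin, had 106, 121, 200 and 126 CPM in CLP libraries, against 31.2, 47.6, 34.0 and 74.1 CPM in Sham libraries. Their log2 fold changes were each 1.57 (adjusted p = 0.00467 and 0.00477, edgeR). For both genes, as for Ube2o and Ube2l6, the highest CLP library was replicate 3 and the highest Sham library was replicate 4; Ube2f was lowest in Sham replicate 4. The third higher marker was Hbb-bt (1.28, adjusted p = 0.0236), and Epor, the erythropoietin receptor, was lower (-0.99, adjusted p = 0.0124). The red cell membrane gene Slc4a1, with 260 to 488 CPM in CLP and 125 to 902 CPM in Sham, overlapped and was highest in Sham replicate 4. The summed level of the 9 markers was 713 to 1229 CPM in CLP libraries and 298 to 1343 CPM in Sham libraries, with the highest value in Sham replicate 4. Without CLP replicate 3 and Sham replicate 4 the log2 fold changes were 0.94 for Ube2o, 0.93 for Ube2l6 and 0.81 for Ube2f. In the remaining libraries Alas2 and Hbb-bs were also higher in every CLP library than in any Sham library. Leaving the 2 libraries out therefore does not remove the difference in these 2 genes, which were not typical of all erythroid markers. It cannot tell what part red cell RNA has. The part of red cell RNA in these results was not tested.

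**Figure D3:**
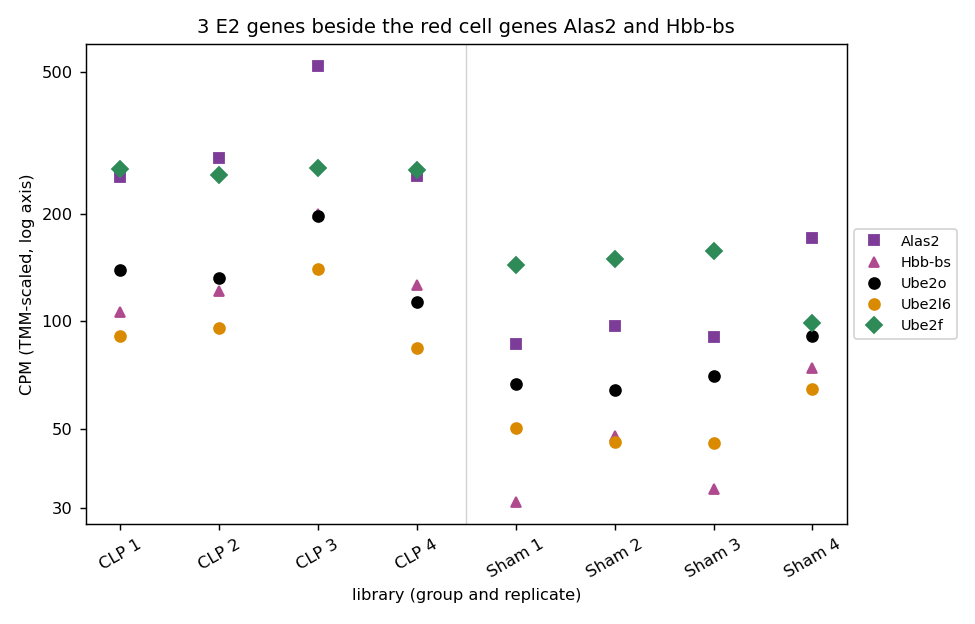
CPM after TMM scaling (log axis) of Ube2o, Ube2l6 and Ube2f beside the red cell genes Alas2 and Hbb-bs in each library, with the 4 CLP libraries left of the 4 Sham libraries. Alas2, Hbb-bs, Ube2o and Ube2l6 are highest in replicate 3 among CLP libraries and in replicate 4 among Sham libraries, where Ube2f is at its lowest.

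Ube2d3 and Ube2d1 are close relatives, E2s that work with very many RING ligases and often place the first ubiquitin. Their coding sequences have 441 bases each, are 77.3% identical, and share no run longer than 14 bases, so their reads can be told apart. Ube2d3 was the most abundant E2 gene, with 401, 395, 490 and 425 CPM in CLP libraries, against 295, 331, 318 and 288 CPM in Sham libraries. It also ranked first per kilobase of the principal transcript, of 3833 bases. That ranking depends on the length chosen, because all exons of the gene cover 24499 bases. The groups did not overlap, and the log2 fold change was 0.48 (SE 0.09, adjusted p = 0.00108, edgeR) with TMM and 0.16 (adjusted p = 0.142) with library totals. Ube2d1 had 14.5, 13.1, 17.2 and 15.7 CPM in CLP libraries, against 20.1, 18.2, 18.5 and 19.9 CPM in Sham libraries. Here every CLP library was below every Sham library, and the log2 fold change was -0.34 (SE 0.11, adjusted p = 0.0255, edgeR) with TMM and -0.66 (adjusted p = 0.000487) with library totals. With TMM the call did not survive leaving out CLP replicate 1, CLP replicate 2 or any Sham replicate (adjusted p up to 0.0799). The ratio of Ube2d3 to Ube2d1 counts was 27.6, 30.1, 28.5 and 27.0 in CLP libraries and 14.7, 18.1, 17.1 and 14.4 in Sham libraries, so all 4 CLP libraries were far above all 4 Sham libraries.

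The promoters of this pair are shown because the log2 fold changes of the genes had opposite signs under both scalings. Ube2d3 was called higher with TMM only. Given are the bases before the annotated start from RefSeq on GRCm38.p6, 5′ to 3′ on the gene's strand. A match to the NF-kB consensus (searched by name on both strands) is in capitals.
Ube2d3 (chr3:135437982-135438231, plus strand): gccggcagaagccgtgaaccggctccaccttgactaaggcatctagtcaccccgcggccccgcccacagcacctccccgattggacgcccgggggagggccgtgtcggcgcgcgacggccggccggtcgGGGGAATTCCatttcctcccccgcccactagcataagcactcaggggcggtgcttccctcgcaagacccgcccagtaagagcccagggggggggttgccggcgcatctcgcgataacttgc
Ube2d1 (chr10:71285263-71285512, minus strand): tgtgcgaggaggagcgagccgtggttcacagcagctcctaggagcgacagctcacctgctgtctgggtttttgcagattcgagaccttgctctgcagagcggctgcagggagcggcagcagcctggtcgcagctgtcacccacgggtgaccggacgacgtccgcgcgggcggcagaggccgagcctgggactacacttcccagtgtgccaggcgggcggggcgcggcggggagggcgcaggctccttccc
The Ube2d3 window holds a match and the Ube2d1 window holds none. RefSeq gives other starts for Ube2d3 as well, and the windows of some of them have no match. Of 36 promoter windows found for 25 members 5 held an NF-kB match, and 7.25% of all 32851 promoters did. The matches were in windows of Ube2c, Ube2d3, Ube2q2 and Ube2r2. Overlapping windows of Ube2d3 held the same site, which was therefore counted repeatedly. Ube2c, Ube2q2 and Ube2r2 were not called with TMM. Of the genes called higher under both scalings, Ube2f, Ube2h, Ube2j2 and Ube2l6 had windows without a match, and no window was found for Ube2o. The interferon element (GAAA, any 2 bases, GAAA, on both strands) was in 0 of the 36 windows and in 2.98% of all promoters. These are matches of letters, and binding was not measured.

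Of the other broad RING partners Ube2e1 was higher with a log2 fold change of 0.21 (adjusted p = 0.0415, edgeR), and -0.10 with library totals. The call failed when CLP or Sham replicate 1, 2 or 4 was left out, at up to 0.106, and 16.1% of its exon bases overlap Nkiras1 on the other strand. Ube2e3, its close relative, had 0.17 (adjusted p = 0.0864), and Ube2w, which modifies N-termini, had -0.12 (adjusted p = 0.383). Ube2e2 was near the detection limit, with 0.565 ± 0.0649 CPM after CLP and 0.521 ± 0.336 CPM after Sham (SD, n = 4 each). Over the 6 genes of this group 2 were higher and 1 lower with TMM, and 0 and 2 with library totals.

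The K63 chain builders had small changes. Ube2n forms K63 chains together with the inactive variants Ube2v1 or Ube2v2 and is the E2 of Traf6. It had 30.9, 28.8, 31.3 and 35.7 CPM in CLP libraries, against 26.6, 23.1, 25.7 and 25.5 CPM in Sham libraries. The groups did not overlap, and the log2 fold change was 0.33 (SE 0.09, adjusted p = 0.014, edgeR) with TMM and 0.008 (adjusted p = 0.95) with library totals. Without CLP replicate 4 its adjusted p was 0.0501. Ube2v2 had 11.7, 11.0, 10.9 and 10.3 CPM in CLP libraries, against 8.68, 9.14, 9.03 and 7.28 CPM in Sham libraries. It also separated the groups, with a log2 fold change of 0.36 (its SE 0.13, adjusted p = 0.036, edgeR) that was 0.05 with library totals and did not pass when Sham replicate 4 or CLP replicate 1, 2 or 4 was left out, at up to 0.0844. The Ube2n to Ube2v2 ratio of counts was 2.90 ± 0.403 in CLP and 2.99 ± 0.412 in Sham libraries (SD, n = 4 each), and its groups overlapped. Ube2v1 had 1.41, 0.869, 1.32 and 1.46 CPM in CLP libraries, against 0.651, 0.782, 1.46 and 1.89 CPM in Sham libraries. These overlapped and are uncertain, because 61.5% of its exon bases are shared with the readthrough gene Gm20431 on the same strand.

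Several ligases, readers and proteases of this signalling had larger log2 fold changes. Of 16 NF-kB ubiquitin ligases 6 were higher and 2 lower with TMM, and 4 and 6 with library totals. Traf6, the ligase of Toll-like receptor and interleukin-1 signalling, had 111, 91.0, 109 and 114 CPM in CLP libraries, against 53.5, 51.1, 54.6 and 43.0 CPM in Sham libraries. Every CLP library was above every Sham library, and the log2 fold change was 1.07 (adjusted p = 1.26e-05, edgeR) with TMM and 0.75 with library totals. Birc2 and Birc3, which encode the inhibitors of apoptosis cIAP1 and cIAP2, had log2 fold changes of 1.71 and 1.69, and Birc3 was the most abundant ligase of the list at 936 ± 87.4 CPM after CLP and 291 ± 75.6 CPM after Sham. Of 12 readers and kinases of K63 and linear chains 8 were higher and 2 lower with TMM, and 6 and 3 with library totals. Tnip3, an A20-binding inhibitor of NF-kB, had the largest change among them at 5.90, the autophagy receptor Sqstm1 had 1.49, and Tab1, an adaptor of the TAK1 kinase, fell to 4.64 ± 0.773 CPM after CLP, against 13.3 ± 1.52 CPM after Sham. Of 14 deubiquitinases of such chains 2 were higher and 2 lower with TMM, and 1 and 6 with library totals; Tnfaip3, which encodes A20, had a log2 fold change of 2.58, and Cyld had 0.02 and did not pass.

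Of the E2s of the endoplasmic reticulum (ER) and of K48 chains, 4 of 6 were higher with TMM and 1 with library totals, where 1 was lower. Ube2j2, a tail-anchored ER enzyme, was the gene called under both scalings, and its library values are given after they were seen. It had 33.2, 33.1, 39.4 and 35.5 CPM in CLP libraries, against 24.6, 24.1, 25.7 and 20.4 CPM in Sham libraries. The groups did not overlap, with a log2 fold change of 0.57 (its SE 0.10, adjusted p = 0.000757, edgeR) with TMM and 0.26 (adjusted p = 0.0409) with library totals. Its relative Ube2j1, more abundant at 122 ± 16.4 CPM after CLP and 95.0 ± 7.46 CPM after Sham (SD, n = 4 each), had 0.36 (adjusted p = 0.0117, edgeR) and 0.05 with library totals. Ube2k, which builds K48 chains without a RING partner in some settings, had 0.41 (adjusted p = 0.00393), and Ube2g2, an E2 of ER-associated degradation, had 0.22 (adjusted p = 0.0344). The Ube2g2 call failed when Sham replicate 4 or CLP replicate 1 or 4 was left out, at up to 0.0968. Ube2g1 had -0.11 and did not pass with TMM.

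Ube2r2, a partner of cullin ligases related to Cdc34, had 49.6, 52.1, 48.6 and 46.5 CPM in CLP libraries, against 46.4, 42.3, 41.5 and 48.8 CPM in Sham libraries. The groups overlapped, and its log2 fold change of 0.14 had an adjusted p of 0.195 in edgeR. Of 17 genes of ER-associated degradation 9 were higher and 0 lower with TMM, but 1 was higher and 6 lower with library totals. Edem1, a lectin of this pathway, was higher under both scalings, with a log2 fold change of 0.70. The most abundant gene, March6, a ligase that uses Ube2j2, did not pass with TMM (0.08, adjusted p = 0.48).

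Ube2l3 serves HECT and RBR ligases, among them the linear chain complex. It had 93.1, 91.5, 91.1 and 86.6 CPM in CLP libraries, against 90.0, 74.0, 81.0 and 82.6 CPM in Sham libraries. The groups overlapped, and the log2 fold change was 0.14 (SE 0.07, adjusted p = 0.137, edgeR) with TMM and -0.17 (adjusted p = 0.0678) with library totals. Without Sham replicate 1 the TMM value was 0.23 and passed (adjusted p = 0.0326, edgeR). Of its exon bases 28.6% overlap Ydjc on the other strand. Of 14 RBR ligases 7 were higher and 3 lower with TMM, and 2 and 4 with library totals. Rnf19b had 1072 ± 131 CPM after CLP and 321 ± 74.1 CPM after Sham (log2 fold change 1.74), and Arih2, a partner of neddylated Cul5, had 125 ± 5.21 CPM after CLP and 50.1 ± 5.76 CPM after Sham (log2 fold change 1.32); both were higher under both scalings.

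Among Sham libraries the E2s of cell division were highest in replicate 4. Ube2c, the initiating E2 of the anaphase-promoting complex (APC/C), had 6.79, 6.54, 7.23 and 3.71 CPM in CLP libraries, against 4.70, 2.92, 4.89 and 16.9 CPM in Sham libraries. Ube2t, the E2 of the Fanconi anemia pathway, had 0.897, 1.64, 0.713 and 1.12 CPM in CLP libraries, against 0.362, 1.07, 1.63 and 4.15 CPM in Sham libraries. Both were highest in Sham replicate 4 and overlapped between the groups, with log2 fold changes of -0.28 (adjusted p = 0.706, edgeR) and -0.71 (adjusted p = 0.4) that were 0.57 and 0.17 without that library. Of the exon bases of Ube2c 22.8% overlap Tnnc2 on the other strand.

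The proliferation gene Mki67 had 216, 193, 131 and 165 CPM in CLP libraries, against 57.03, 68.8, 118 and 402 CPM in Sham libraries. The 12 cell cycle genes summed to 197 to 332 CPM in CLP and 117 to 701 CPM in Sham, again highest in Sham replicate 4, and 0 of them passed the test. The part of dividing cells in these values was not tested. Ube2s, which extends K11-linked chains on the APC/C, had 24.3, 23.3, 21.6 and 22.2 CPM in CLP libraries, against 15.4, 15.9, 16.3 and 19.9 CPM in Sham libraries. The groups did not overlap, and the log2 fold change was 0.44 (SE 0.11, adjusted p = 0.00643, edgeR) with TMM and 0.12 (adjusted p = 0.409) with library totals. Of 17 APC/C genes 2 were higher and 5 lower with TMM; with library totals 1 was higher and 10 lower. The most abundant, Anapc1, had 98.5 ± 4.69 CPM after CLP and 118 ± 4.52 CPM after Sham (SD, n = 4 each), giving a log2 fold change of -0.26 (adjusted p = 0.00737, edgeR). Cdc27 had 0.90 and Cdc23 had -1.06, and all 3 were called the same way under both scalings.

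Ube2b and Ube2a encode the RAD6 pair, which marks histone H2B and PCNA. Ube2b had 92.1 ± 4.28 CPM after CLP and 69.5 ± 5.34 CPM after Sham (SD, n = 4 each), giving a log2 fold change of 0.41 (adjusted p = 0.00125, edgeR) that was 0.09 with library totals. Ube2a had 27.97 ± 2.64 CPM after CLP and 26.9 ± 1.65 CPM after Sham, and did not pass with TMM (0.06, adjusted p = 0.658). Their ratio of counts was 3.23, 3.36, 3.04 and 3.59 in CLP libraries and 2.22, 2.62, 2.88 and 2.67 in Sham libraries, without overlap. Of 13 RAD6 partners and PCNA switch genes 2 were higher and 4 lower with TMM, and 0 and 8 with library totals. The most abundant, Ubr4, did not pass with TMM (0.16, adjusted p = 0.153). Huwe1 was among the higher ones with TMM, at 553 ± 45.1 CPM after CLP and 434 ± 30.3 CPM after Sham. The remaining large or regulatory members, Ube2q1, Ube2q2 and Ube2cbp, had log2 fold changes of -0.11, -0.12 and 0.34 and did not pass with TMM. Ube2q2 passed as lower when CLP replicate 3 was left out (-0.21, adjusted p = 0.039, edgeR).

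Pairs of related genes were compared by their ratio of counts within a library, which no scaling can change. In 4 of 9 pairs every CLP library was above every Sham library, and each of these reached the smallest p that 70 assignments of 4 against 4 allow (exact two-sided permutation test, p = 0.0286). Adjusted over the 9 pairs this is 0.0643, so no pair passed 0.05. With this smallest p, pairs could have passed only if more of them had separated. The pairs were chosen after the counts were seen, and ratios of other gene pairs were not computed. In each of the 4 pairs the first gene was already called higher with TMM, so the ratio reuses those values and is no separate support. The mean log2 ratio was higher after CLP by 0.83 for Ube2l6 to Ube2l3, by 0.82 for Ube2d3 to Ube2d1, by 0.73 for Ube2f to Ube2m and by 0.35 for Ube2b to Ube2a. Ube2j2 to Ube2j1 differed by 0.22 (exact permutation p = 0.0571) and Ube2g2 to Ube2g1 by 0.34 (exact permutation p = 0.0857), and the groups of both overlapped. The groups of the other 3 pairs overlapped as well.

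**Figure D4:**
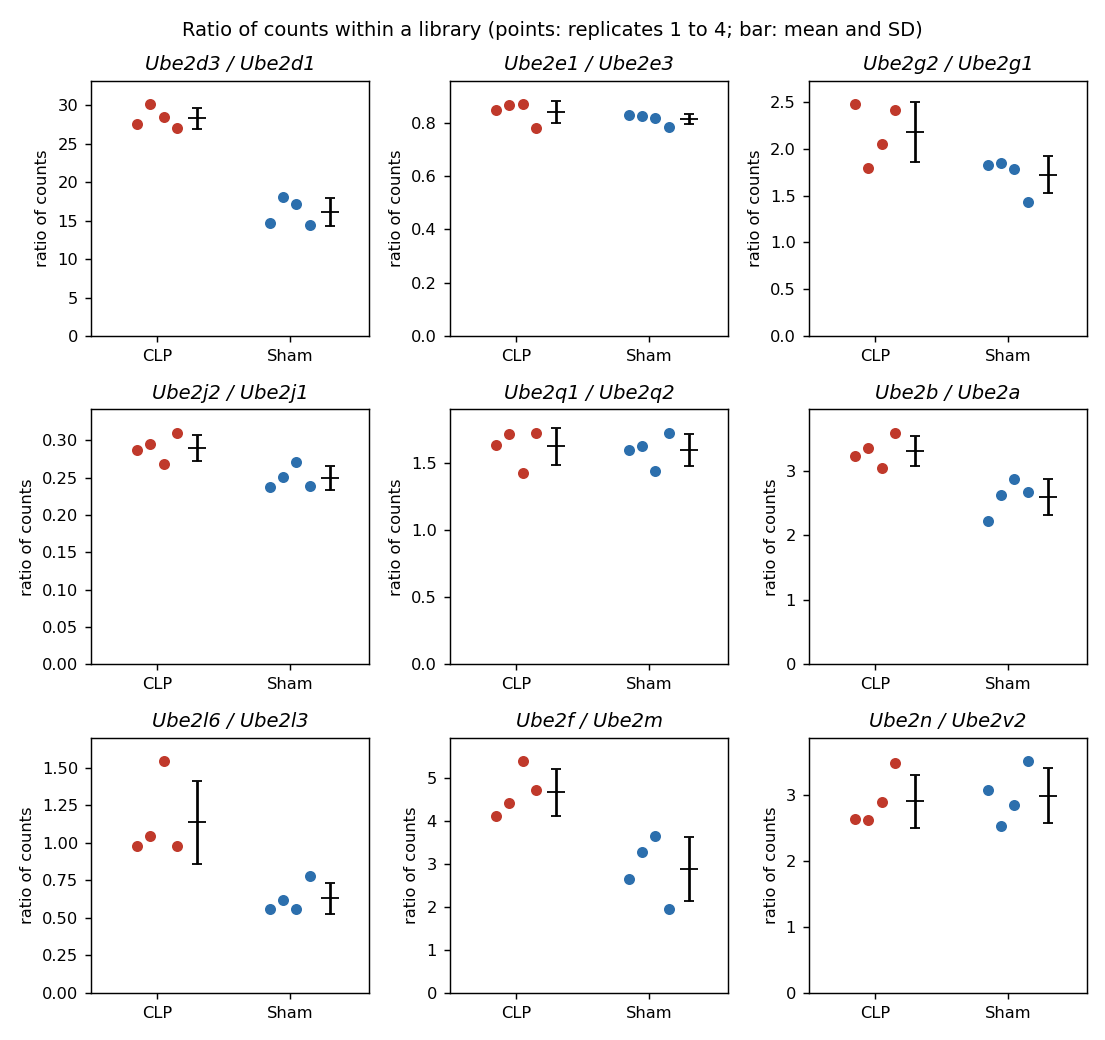
Ratio of counts within a library (vertical axis, from 0) for 9 pairs of E2 genes, with 4 CLP libraries left of 4 Sham libraries and the mean and SD beside each group. CLP lies above Sham without overlap for Ube2d3 to Ube2d1, Ube2b to Ube2a, Ube2l6 to Ube2l3 and Ube2f to Ube2m.

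A few genes held a larger share of all E2 gene counts after CLP. Ube2f made up 12.2% ± 0.640 of the summed counts in CLP libraries and 8.44% ± 1.55 in Sham libraries (SD, n = 4 each), without overlap. Ube2d3 made up 19.6% ± 0.789 in CLP and 18.9% ± 1.19 in Sham, and these overlapped. Ube2j2 also had a larger share in every CLP library than in any Sham library, at 1.62% ± 0.0484 in CLP and 1.46% ± 0.126 in Sham. In 11 genes the share was lower in every CLP library than in any Sham library, among them Ube2d1 at 0.695% ± 0.0498 in CLP and 1.18% ± 0.0627 in Sham. Shares add up to a fixed total, so a share can fall only because other genes rise. Ube2e1 was among the 11, although it was called higher with TMM. This count has no counterpart over all genes. The 5 genes with the highest mean share over all 8 libraries were Ube2d3, Ube2f, Ube2j1, Ube2o and Ube2h. Together they held 49.9% ± 0.870 in CLP and 42.8% ± 1.88 in Sham. The set was picked from these same shares, so genes high in CLP could enter it and the difference is partly built in. In Sham Ube2z (5.50%) and Ube2q1 (5.13%) had larger shares than Ube2h (5.06%) and Ube2o (4.49%). The 31 genes summed to 2178 ± 144 CPM after CLP and 1627 ± 18.2 CPM after Sham with TMM, and to 1949 ± 147 CPM after CLP and 1814 ± 37.7 CPM after Sham with library totals.

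Of the E2 and E2-like genes that the name pattern leaves out, 9 could be tested, and 1 was higher and 1 lower with TMM, and 1 and 6 with library totals. Ube2d2a, a close relative of Ube2d1 and Ube2d3, had 69.7 ± 7.52 CPM after CLP and 47.6 ± 3.72 CPM after Sham (SD, n = 4 each), giving a log2 fold change of 0.55 (adjusted p = 0.000706, edgeR) with TMM and 0.23 (adjusted p = 0.0469) with library totals. Birc6, a giant E2 and the most abundant of these at 400 ± 17.7 CPM after CLP and 354 ± 14.2 CPM after Sham, had 0.18 and an adjusted p of 0.0513 in edgeR. Upstream of the E2s, 3 of 10 E1 genes were higher and 1 lower with TMM, and 0 and 5 with library totals. The main ubiquitin E1, Uba1, had 0.22 (adjusted p = 0.0255, edgeR) and -0.10 with library totals. Of 16 genes for ubiquitin and its relatives 5 were higher and 0 lower with TMM, and 1 and 6 with library totals, and the polyubiquitin gene Ubb had 0.04 and did not pass with TMM.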

How the data were processed

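Raw counts per Ensembl gene for 8 libraries (4 CLP, 4 Sham) were used as the authors deposited them, in 1 table. Per the labels' protocols, RNA came from sorted cells, libraries from a stranded TruSeq kit and reads from an Element AVITI. FastQC, STAR 2.7.10b, featureCounts, DESeq2 and mm39 are named in the submitters' processing notes, without roles. The sources used here give neither annotation release nor strand setting; overlapping genes may therefore share reads.

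Of 55414 IDs 52081 were given symbols from GENCODE M21, used for names, transcripts and overlaps only; gene coordinates are not given, because its build is older. The test was that of edgeR 4.0.16 under R 4.3.3 (14004 genes kept by filterByExpr; TMM; robust quasi-likelihood F-test, CLP against Sham, no covariates), adjusted by Benjamini-Hochberg over all genes at 0.05. SE was computed as the size of the log2 fold change over the root of F. A gene at 1 CPM rests on 15.1 to 27.6 reads per library. No library repeated another of its group (chi-square per degree of freedom at least 9.25). Ratios were tested with SciPy 1.17.1 and figures drawn with matplotlib 3.10.9. The edgeR step was tested on simulated data, with changes set in genes of at least 5 CPM. It recovered 36 of 67 genes changed 1.5-fold, 56 of 67 changed 2-fold and 65 of 66 changed 4-fold. A gene that did not pass may therefore still have a small change. Of the genes left unchanged in the simulation 11 were called. The simulation changed far fewer genes than were called in the data, about equally up and down, so the assumption of TMM held by design. Its rates therefore do not carry over to the data.

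Library values were given for a fixed set of genes and for called members changed by at least 0.58 on the log2 scale and a mean of at least 5 CPM. In each pathway list the most abundant gene and up to 3 called genes with a log2 fold change of at least 1 in size could be named, and others were named as partners of members after their values were seen. The values of 1 member and of some genes of the lists are not reported here, but they are in the counts. Members and lists were chosen with earlier results of these data known. Alternatives were library totals, DESeq2 size factors, DESeq2 1.42.0, other filters on low counts, a replicate block and leaving out each library; leaving out CLP replicate 3 and Sham replicate 4 together was added after the data were seen.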

Additional observations from a re-analysis of the deposited data

Results flagged for a closer look

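In 5 of 62 groups of 4 libraries 1 library stood far from the other 3, and chance marks about 1 in 20 groups in this way. Ube2j1 had 147 CPM in CLP replicate 3, against 112 to 115 CPM in the other CLP libraries. Ube2q2 had 56.2 CPM in CLP replicate 3, against 44.6 to 46.3 CPM in the others. Ube2e3 had 46.0 CPM in CLP replicate 3, against 52.1 to 53.2 CPM in the others. Ube2c had 16.9 CPM in Sham replicate 4, against 2.92 to 4.89 CPM in the other Sham libraries. Ube2q1 had 79.5 CPM in Sham replicate 3, against 84.4 to 85.2 CPM in the others. CLP replicate 3 held 3 of the 5.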

How the results depend on the processing

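The scaling mattered most. With library totals 5 members were higher and 6 lower, and 1286 and 6435 of all genes. The sign turned for Ube2a (-0.26), Ube2e1 (-0.10), Ube2e2 (-0.18), Ube2e3 (-0.15), Ube2g2 (-0.095), Ube2l3 (-0.17), Ube2m (-0.077), Ube2r2 (-0.18), Ube2v1 (-0.24) and Ube2z (-0.19). DESeq2 size factors and DESeq2's Wald test each gave 17 higher and 1 lower, no filter on low counts 12 and 1, and the replicate block 14 and 1, with Ube2c at 0.065 and Ube2m passing (adjusted p = 0.0267). Both DESeq2 settings added Ube2m and Ube2e3 to the higher genes. The deviations of same-numbered libraries had correlations of 0.074, -0.038, 0.26 and -0.19. The value of replicate 3 was the highest of all combinations of a CLP and a Sham library. With so few libraries these values cannot tell whether the numbers pair them. Leaving out each library in turn gave 11 to 17 members higher and 0 to 2 lower. It turned the sign of Ube2a (-0.0098 to 0.13), Ube2c (-0.50 to 0.57), Ube2e2 (-0.16 to 0.67), Ube2t (-1.02 to 0.17) and Ube2v1 (-0.093 to 0.44), none of them called with TMM. Of the 16 called members 11 kept the call without each library, and the exceptions were Ube2v2, Ube2n, Ube2g2, Ube2e1 and Ube2d1. Of the members not called, Ube2q2 passed as lower and Ube2e3 and Ube2m as higher without CLP replicate 3. Without Sham replicate 1 Ube2l3 and Ube2m passed as higher. Without CLP replicate 3 and Sham replicate 4 together 14 members were higher and 2 lower, with Ube2a at -0.0083, Ube2c at 0.45, Ube2e2 at -0.033 and Ube2t at 0.32. The cause was not tested. Ube2cbp, Ube2e2, Ube2v1 and Ube2t, at a mean under 2 CPM, carry large counting error.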
